A study of Mus musculus with 2 samples.

Results

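The miR-101 and miR-135 families are microRNA (miRNA) families of the brain whose members lie on separate chromosomes. The 5 loci described here are Mir101a, Mir101b, Mir135a-1, Mir135a-2 and Mir135b, of 2202 miRNA genes in the tables. They were found by their gene symbol in GENCODE M21. The families were selected on a measured value, the ratio between the 2 libraries at Mir101b and Mir135b, so that ratio is described below and not tested. The tissue was left cerebral cortex, and RNA of below 30 nt was sequenced from mice aged 18 to 20 months of the hybrid B6CASTF1/J, a first-generation cross of C57BL/6J and CAST/EiJ parents. There was 1 group with 2 libraries, labelled biological replicates 1 and 2, and no treatment or other genotype. The labels tie both libraries to the same donor record and give conflicting sexes, so separate animals cannot be told apart from technical repeats and sex was not used.

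A miRNA is cut from a hairpin transcript and is about as long as the reads of these libraries. It finds its target messenger RNAs mainly through its seed, bases 2 to 8 from its 5′ end. The hairpin has a 5p and a 3p arm, and either can give a mature miRNA. miR-101 is read mainly from the 3p arm and is known for repressing Ezh2, the histone methyltransferase of Polycomb complex 2. miR-135 is read mainly from the 5p arm and is known in brain for acting on the serotonin transporter Slc6a4 and the serotonin receptor Htr1a.

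The 3p arms of miR-101 are shown because their seeds and their near identity decide which locus a read can be given to. Capitals mark bases 2 to 8. The sequences are those of RefSeq on GRCm38.p6, where all 5 hairpins matched by symbol and equalled the GENCODE M21 transcripts letter for letter.
miR-101a-3p: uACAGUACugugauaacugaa
miR-101b-3p: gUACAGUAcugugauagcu
miR-101c: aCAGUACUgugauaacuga
The annotated ends differ, with miR-101b-3p starting 1 base before miR-101a-3p and miR-101c 1 base after it. Bases 2 to 8 therefore read as 3 different words of the same stretch, ACAGUAC for miR-101a-3p, UACAGUA for miR-101b-3p and CAGUACU for miR-101c. Aligned without gaps, the Mir101b hairpin matched miR-101a-3p at 20 of 21 bases, with the seed unchanged and the substitution A16G (positions counted from 1 at the 5′ end of miR-101a-3p). The 5p arms were less alike, with 17 of 22 bases of miR-101a-5p kept in the Mir101b hairpin and 5 substitutions.

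The 2 hairpins of miR-101 are printed with their longest shared run in capitals, a run of 20 bases that ends just before that substitution.
Mir101a: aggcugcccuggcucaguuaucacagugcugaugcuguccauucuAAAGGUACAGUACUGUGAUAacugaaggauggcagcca
Mir101b: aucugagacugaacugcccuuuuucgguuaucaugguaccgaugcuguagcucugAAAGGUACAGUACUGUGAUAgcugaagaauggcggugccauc
A 3p read long enough to reach the substitution differs between the hairpins by that base alone. How the authors' alignment treated mismatches is not given in the sources used here. No arm of Mir101a or Mir101b in RefSeq occurred whole in any other annotated miRNA hairpin.

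In the miR-135 family the shared part is the 5p arm itself, so both hairpins of miR-135a are shown with the shared run of 24 bases in capitals.
Mir135a-1: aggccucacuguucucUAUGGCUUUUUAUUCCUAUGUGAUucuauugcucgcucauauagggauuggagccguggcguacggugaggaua
Mir135a-2: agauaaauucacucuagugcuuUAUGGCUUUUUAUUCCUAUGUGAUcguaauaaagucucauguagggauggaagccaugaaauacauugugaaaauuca
The 23 bases of miR-135a-5p lie whole inside that run, so such a read fits both loci equally well. The tables hold reads that map to several places on a line of their own, under no gene. The counts of Mir135a-1 and Mir135a-2 can thus leave out their 5p reads. The 3p arms, in contrast, each occurred in a single annotated hairpin.
miR-135a-5p: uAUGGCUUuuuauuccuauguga
miR-135a-1-3p: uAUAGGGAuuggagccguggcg
miR-135a-2-3p: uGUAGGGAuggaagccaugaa
miR-135b-3p: aUGUAGGGcuaaaagccauggg
The Mir135b hairpin matched miR-135a-5p at 22 of 23 bases, with the same seed AUGGCUU and the substitution U11C (counted from the 5′ end of miR-135a-5p). Its longest run in common was 14 bases with Mir135a-1 and 13 with Mir135a-2, below the 20 bases searched among annotated transcripts. Mir135b is therefore the locus of the family with no long run shared with another annotated gene.

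All 5 loci lie in or across from longer genes (mm10, coordinates counted from 1). Mir101a (ENSMUSG00000065451.1, chr4:101346945-101347027, minus strand) lies in an exon of the noncoding E130102H24Rik. Mir101b (ENSMUSG00000065556.1, chr19:29135279-29135375, plus strand) lies in an intron of Rcl1, a protein of ribosomal RNA processing. Mir135a-1 (ENSMUSG00000065407.1, chr9:106154124-106154213, plus strand) lies in an intron of the noncoding D030055H07Rik and across from an exon of Glyctk, glycerate kinase, on the other strand. Mir135a-2 (ENSMUSG00000065524.1, chr10:92072086-92072185, minus strand) lies in an intron of Rmst, a long noncoding RNA of neural cells. Mir135b (ENSMUSG00000065435.1, chr1:132198088-132198184, plus strand) lies in introns of Lemd1 and of the gene model AC124108.1. No other miRNA gene lay within 10 kb of any of the 5. The nearest was Mirlet7g, 24627 bases from Mir135a-1 on the same strand, a distance looked up after its level was known. It had 275300 reads in replicate 1 and 458774 in replicate 2, against 36 and 79 at Mir135a-1.

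Reads were counted on the strand of the gene and scaled to CPM, a gene's reads per 1000000 sense reads at miRNA genes of that library. All 5 loci had at least 10 reads over both libraries, as did 472 genes in all. Mir101b had the highest level of the 5 loci in each library. It had 2985 reads in replicate 1, or 1253 CPM (95% exact binomial interval 1209 to 1299), and 1375 reads in replicate 2, or 309.9 CPM (293.8 to 326.8). Its mean of 781.6 ± 667.1 CPM (SD, n = 2) placed it 107th of all genes. The level of Mir101b was well apart in the 2 libraries, and its lower value still exceeded the higher value of every other locus described here.

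Mir101a, which carries the second miR-101 hairpin, followed with 518 reads in replicate 1, or 217.5 CPM (199.2 to 237.1), and 335 reads in replicate 2, or 75.51 CPM (67.64 to 84.05). Its mean was 146.5 ± 100.4 CPM (SD, n = 2). Mir135b had 460 reads in replicate 1, or 193.1 CPM (175.9 to 211.6), and 226 reads in replicate 2, or 50.94 CPM (44.52 to 58.03). Its mean was 122.0 ± 100.6 CPM. Mir101a stood above Mir135b in both libraries, but their counting intervals overlapped in replicate 1, though not in replicate 2, and their means differed by less than the spread between the libraries.

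The miR-135a loci were the lowest. Mir135a-2 had 71 reads in replicate 1, or 29.81 CPM (23.28 to 37.6), and 59 reads in replicate 2, or 13.3 CPM (10.12 to 17.15). Its mean was 21.56 ± 11.68 CPM (SD, n = 2). Mir135a-1 had 36 reads in replicate 1, or 15.12 CPM (10.59 to 20.93), and 79 in replicate 2, or 17.81 CPM (14.1 to 22.19). Its mean was 16.46 ± 1.903 CPM. Their order was not the same in the 2 libraries. Mir135a-2 had 1.97 times the reads of Mir135a-1 in replicate 1 (95% interval 1.30 to 3.03) and 0.747 times in replicate 2 (0.524 to 1.06). These 2 loci did not differ beyond the spread between the libraries, and their shared 5p arm keeps the counts from standing for miR-135a as a whole.

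**Figure D1:**
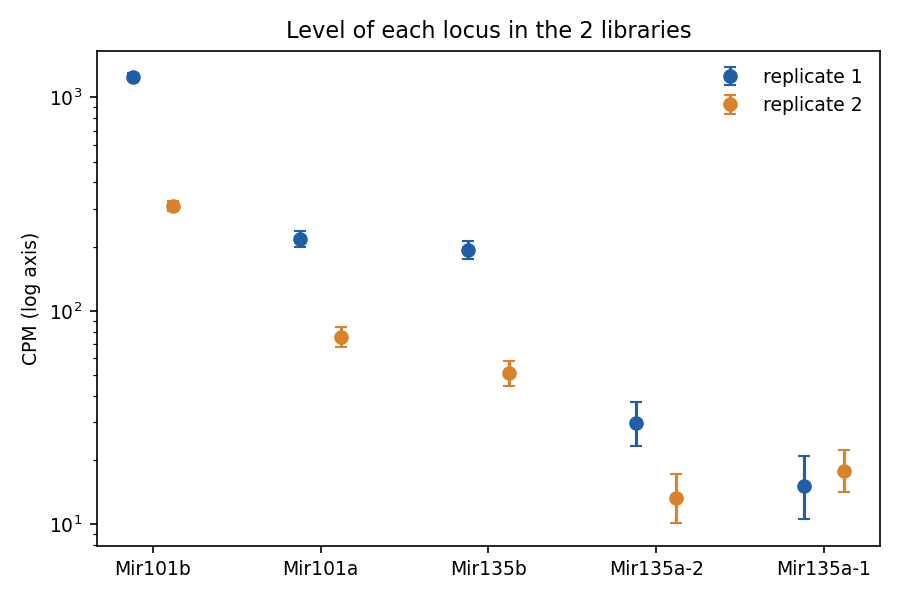
CPM of each locus (log axis) in replicate 1 and replicate 2, with 95% exact binomial intervals that cover counting error only. Mir101b lies highest in both libraries, and 4 of the 5 loci lie higher in replicate 1, with Mir135a-1 the exception.

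A miRNA read spans about a whole mature arm, so a count does not grow with the length of the hairpin. The hairpins measure 83 to 100 bases. Per 100 bases of hairpin the mean levels kept the same order, with Mir101b at 805.8 CPM, Mir101a at 176.5, Mir135b at 125.8, Mir135a-2 at 21.56 and Mir135a-1 at 18.29. No read lay on the opposite strand of any of the 5 loci in either library, so sense counts and counts of both strands were equal there. This held at Mir135a-1 as well, across from the exon of Glyctk.

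Within each family a single locus held most of the assigned reads. Of the miR-101 reads, Mir101b held 85.21% in replicate 1 (83.99 to 86.37, 95% exact binomial interval) and 80.41% in replicate 2 (78.45 to 82.27). Its mean share was 82.81% ± 3.396 (SD, n = 2). Mir101a held the rest. The intervals of the 2 libraries did not overlap, and the shares differed by 4.8 percentage points. Mir135b held 81.13% of the miR-135 reads in replicate 1 (77.66 to 84.27) and 62.09% in replicate 2 (56.88 to 67.09). Its mean share was 71.61% ± 13.46. The share of Mir135a-2 was 12.52% in replicate 1 (9.911 to 15.53) and 16.21% in replicate 2 (12.57 to 20.4). Mir135a-1 held 6.349% in replicate 1 (4.486 to 8.682) and 21.7% in replicate 2 (17.58 to 26.3). The miR-135 make-up thus differed more between the libraries than that of miR-101, mostly in the shares of Mir135b and Mir135a-1. The level of Mir135a-1 was close in the 2 libraries, at 15.12 and 17.81 CPM, against 193.1 and 50.94 CPM at Mir135b. Mir101b and Mir135b were picked for their ratios between the libraries, so the differences in share are tied to that choice. These shares are of reads assigned to a single locus, so the 5p reads that Mir135a-1 and Mir135a-2 have in common can be missing from them. A read within the 19 bases that the Mir101a and Mir101c hairpins share can be missing too, so the share of Mir101a can be too low. The 3p arms of Mir101a and Mir101b differ at A16G, and how mismatches were treated there is not given.

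**Figure D2:**
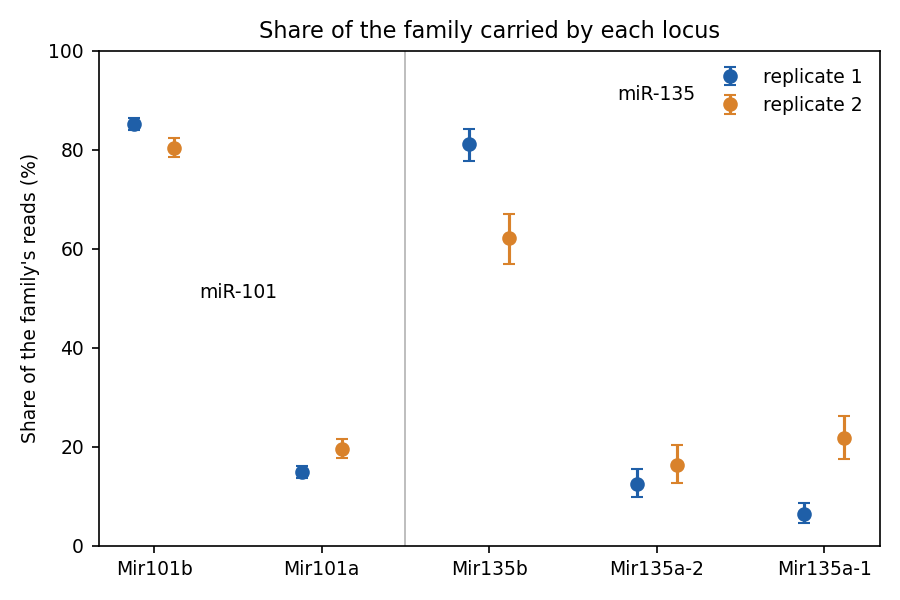
Share of the family's assigned reads at each locus in replicate 1 and replicate 2, with 95% exact binomial intervals for counting error. Mir101b and Mir135b lead their families in both libraries, and Mir135b stands at 81.13% in replicate 1 and 62.09% in replicate 2.

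The families were chosen by the ratio between the libraries, given here as replicate 1 over replicate 2 on TMM effective library sizes. TMM is a scaling that trims the most extreme genes. The log2 ratio of Mir101b was 2.04 (95% exact binomial interval 1.95 to 2.14, counting error only), a 4.12-fold difference. That of Mir135b was 1.95 (1.72 to 2.19), or 3.87-fold. Among 201 genes with a mean of at least 100 CPM these were the 5th and 6th ratios by size. A list of 10 such genes ended with Mir136 at 1.58, and just outside it stood Mir153 at 1.56 and then Mir101a at 1.55 (1.35 to 1.76).

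The remaining miR-135 loci lay below that level. Mir135a-2 had a log2 ratio of 1.19 (0.67 to 1.72) and Mir135a-1 one of -0.21 (-0.82 to 0.38), an interval that holds 0. Of the 5 loci, 4 were at least 2-fold higher in replicate 1 and 0 in replicate 2. Scaled to all reads in the tables, Mir135a-2 had a log2 ratio of 0.87, below 2-fold. Over all 472 compared genes, 50 (10.6%) were at least 2-fold higher in replicate 1, 44 (9.32%) in replicate 2 and 94 (19.9%) in either. Nothing is read from this contrast, since the families were picked on it. The median log2 ratio of the 5 loci was 1.55, and that of all compared genes was -0.07 with quartiles of -0.49 and 0.44.

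**Figure D3:**
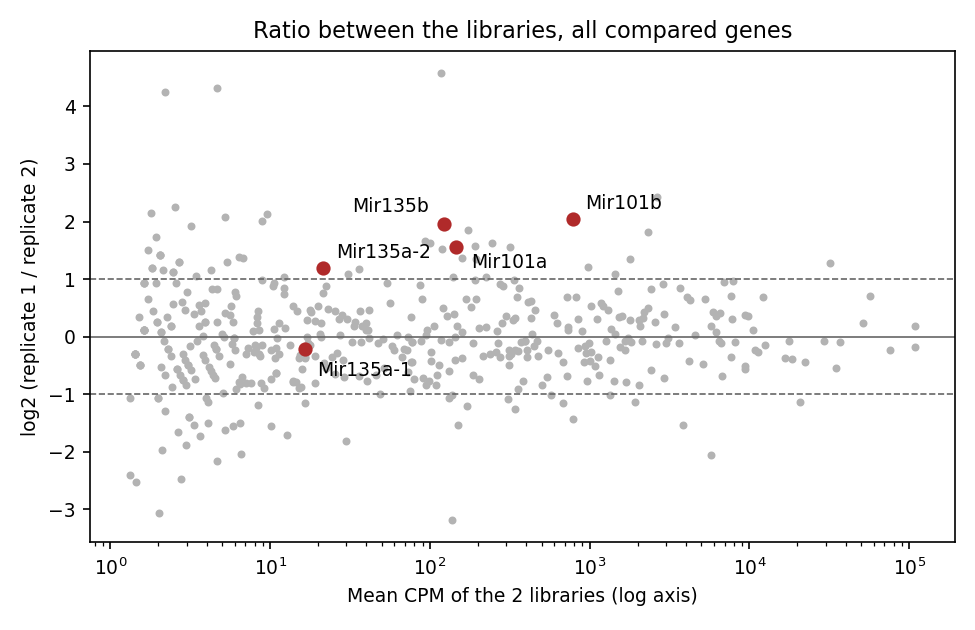
Log2 ratio of replicate 1 over replicate 2 (vertical axis) against mean CPM (log axis) for the compared genes with reads in both libraries (grey), with the 5 loci in red and dashed lines at a 2-fold difference. Mir101b at 2.04 and Mir135b at 1.95 lie near the upper edge at their level, and Mir135a-1 at -0.21 lies among the bulk of genes.

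Loci at the level of Mir101b mostly differed little between the libraries. Among 56 other genes within 2-fold of its mean CPM the median absolute log2 ratio was 0.36, and 0 of them differed as far as Mir101b. Around Mir135b 2 of 64 genes differed as far or farther, around Mir135a-2 2 of 70, around Mir101a 7 of 66 and around Mir135a-1 63 of 77. These counts describe where the selected loci lie and are no test.

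Mir101b and Mir135b, on different chromosomes, kept nearly the same proportion to each other. Mir101b had 6.49 times the reads of Mir135b in replicate 1 (95% interval 5.88 to 7.17) and 6.08 times in replicate 2 (5.28 to 7.03). This is fixed by their similar ratios, for which both were picked. Mir101b against Mir101a moved more, from 5.76 (5.25 to 6.34) in replicate 1 to 4.10 (3.64 to 4.64) in replicate 2. Summed over loci, miR-101 stood at 1471 CPM in replicate 1 and 385.4 in replicate 2, and miR-135 at 238.1 and 82.05 CPM.

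Base composition moved with the ratio between the libraries across genes. Of the compared genes, 471 had reads in both libraries and were divided by the GC content of their hairpin into 4 groups of 117 or 118 genes. In the GC-poorest group (28.36 to 45.65% GC) the median log2 ratio was 0.34, and 19.5% of its 118 genes were at least 2-fold higher in replicate 1. The next groups had medians of 0.02 and -0.18, with 8.47% and 5.98% of their genes at least 2-fold higher in replicate 1. In the GC-richest group (59.65 to 91.58%) the median was -0.29, and 8.47% of its 118 genes were at least 2-fold higher in replicate 1. From the GC-poorest to the GC-richest group, 5, 9, 8 and 21 genes were at least 2-fold higher in replicate 2. Across these genes, which share their libraries, Pearson's r was -0.26 and Spearman's rho -0.31, given as a description.

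The 5 loci did not line up by GC. Mir135a-2 had the lowest hairpin GC, 33%, and a log2 ratio of 1.19, while Mir135a-1 at 46.67% had -0.21. Mir101b at 47.42% and Mir101a at 49.4% lay in group 2 counted from the GC-poorest, and Mir135b at 53.61% in group 3. The ratios of 4 of the 5 loci, all but Mir135a-1, lay above the upper quartiles of their groups, which were 0.91 in group 1 (Mir135a-2), 0.45 in group 2 (Mir101a and Mir101b) and 0.26 in group 3 (Mir135b). By the GC-poorer mature arm, Mir101a (33.33%) and both miR-135a loci (30.43%) lay in the GC-poorest of 4 such groups of 423 genes, and Mir101b (42.11%) in group 2. For Mir135b this measure had the 3p arm alone, at 50% GC. The stretch of its hairpin that matches miR-135a-5p has 34.78% GC, within the range of the GC-poorest group (22.73 to 40.91%). The part of base composition in the ratios of these loci was not tested.

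**Figure D4:**
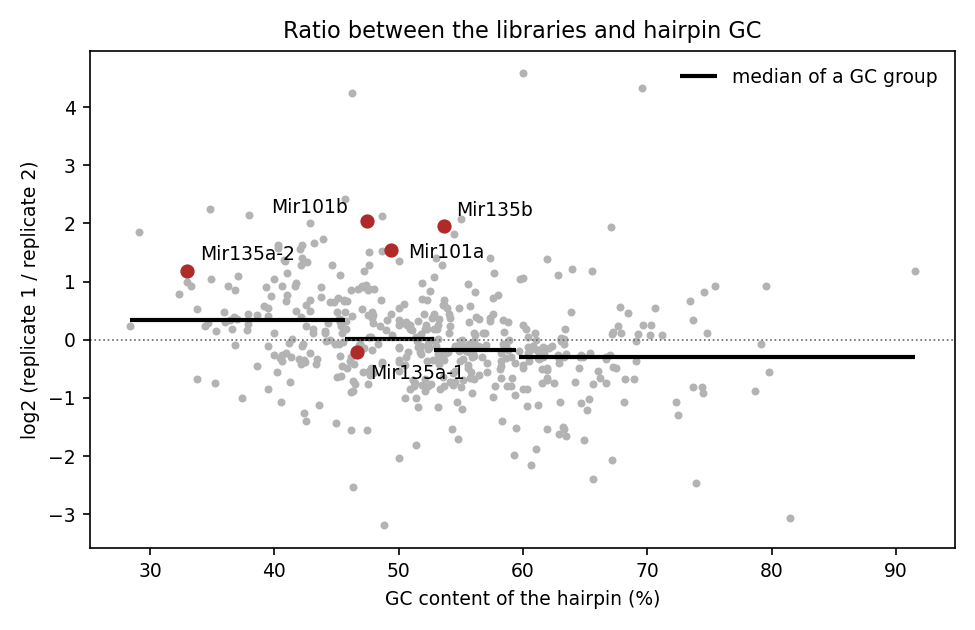
Log2 ratio of replicate 1 over replicate 2 (vertical axis) against hairpin GC content in percent for 471 genes (grey), with the 5 loci in red and black bars at the median of each of the 4 GC groups. The medians go from 0.34 in the GC-poorest to -0.29 in the GC-richest group, and 4 of the 5 loci, all but Mir135a-1, lie above the median bar of their group.

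Other miRNAs with the same or nearly the same seed were few. Mir101c (ENSMUSG00000106183.1, chr9:3038669-3038743, minus strand), whose hairpin holds 19 bases of miR-101a-3p, had 0 reads in both libraries. For reads assigned to Mir101c alone, that allows up to 1.26 CPM in replicate 1 and 0.676 in replicate 2. The 19 bases of miR-101c lie whole in the Mir101a hairpin, so such a read fits both loci. It can be counted under no gene, so the 0 does not bound the level of miR-101c. No RefSeq mature miRNA outside the 5 loci had bases 2 to 8 of miR-101a-3p, miR-101b-3p or miR-135a-5p. Bases 2 to 7 alone were shared by 3 miRNAs, shown here with bases 2 to 8 in capitals.
miR-144-3p: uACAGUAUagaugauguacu
miR-582-5p: aUACAGUUguucaaccaguuac
miR-7578: cAUGGCUCugucuucugccucaga
Mir144, an erythroid miRNA that shares these bases with miR-101a-3p, had 49 reads in replicate 1 and 77 in replicate 2, or 20.57 and 17.36 CPM. Mir582, which shares them with miR-101b-3p, had 99 and 88 reads, or 41.57 and 19.84 CPM. Mir7578, which shares them with miR-135a-5p, had 0 reads in both. The seed mates that were read thus lay below Mir101a and Mir101b in each library.

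The genes most like each locus were sought by distance in the plane of log2(CPM + 1) in replicate 1 and replicate 2, over 2 libraries. Mir101a was nearest to Mir410 (distance 0.26) and Mir376c (0.31). Mir135b was nearest to Mir203 (0.32) and Mir142 (0.37), and Mir135a-2 to Mir182 (0.25) and Mir10b (0.31). Mir135a-1 had close company in Mir3057 (0.09) and Mir3097 (0.10). Mir101b lay apart, with Mir187 (0.96) and Mir298 (0.99) as its nearest genes. The distance includes the ratio between the libraries, for which Mir101b was picked, so its place apart is tied to that choice.

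The 2 families were set beside 16 other miRNA families of several loci found in brain, 35 loci in all. Reads that fit several loci are under no gene, so families whose loci share a mature arm can lack its reads. Which of the 16 families share an arm is not given here, so the sums, levels and shares below may not be like for like. Summed mean levels were above that of miR-101, 928.1 ± 767.5 CPM (SD, n = 2), in 6 of the 16 families, and above that of miR-135, 160.1 ± 110.3 CPM, in 11. Of the 35 loci, 8 had a mean at or above Mir101b and 9 lay below Mir135a-1. The share of the leading locus moved between the libraries by 4.8 percentage points in miR-101 and 19 points in miR-135. Both leading loci were picked for their ratios, so these gaps are tied to that choice and are no test. In the other families it moved by a median of 3.17 points, from 0.013 in miR-219 to 59.6 in miR-26a. Of their 31 loci with at least 10 reads, 1 was at least 2-fold higher in replicate 1, Mir26a-1 at a log2 ratio of 4.58, and 0 in replicate 2, with a median of -0.09. Over all 472 compared genes, 10.6% were at least 2-fold higher in replicate 1 and 9.32% in replicate 2. The comparison families were chosen with earlier results of these data known, so their count is no measure of what is usual.

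The libraries held 8041772 and 12239366 reads, of which 2381663 and 4436398 were sense miRNA reads in replicates 1 and 2. Unmapped reads made up 30.77% and 14.58%, and multimapping reads 35.6% and 44.78%. The neuron list of 9 loci, where 6 had at least 10 reads, summed to 96606 CPM in replicate 1 and 78457 in replicate 2. That sum was higher in replicate 1 through Mir132, at a log2 ratio of 0.71. The other neuron loci with at least 10 reads went the other way, from -0.79 at Mir138-2 to -0.12 at Mir128-2 and Mir383. The 3 loci of Mir124a in the neuron list had 7 and 6 reads. Since reads that fit several loci are under no gene, marker loci that share a mature arm can lack its reads. These counts and sums can thus fall short of the miRNAs themselves. Mural cell markers summed to 10929 and 5799 CPM, oligodendrocyte markers to 4684 and 3502, choroid plexus and ciliated cell markers to 1084 and 738.4, and blood markers to 1938 and 1870. The loci of a list did not move alike. With at least 10 reads, log2 ratios ran from -0.10 to 0.96 for mural cells and -0.07 to 0.82 for oligodendrocytes. For choroid plexus and ciliated cells they ran from 0.23 to 1.63, and for blood from -0.03 to 1.63. Endothelial Mir126a and Mir126b summed to 17007 and 18138 CPM with Mir126b at 0, and liver Mir122 stood at 58.36 and 75.96 CPM. Of the 23 markers with at least 10 reads, 3 (13.04%) were at least 2-fold higher in replicate 1, Mir142 and Mir451a of blood and Mir34c of ciliated cells, and 0 in replicate 2, against 10.6% and 9.32% of all compared genes. The part of cell make-up in the ratios of the 5 loci was not tested. In bulk tissue, fewer cells of a type and less RNA per cell cannot be told apart. All intervals cover counting error only and hold no spread between libraries. Reads copied by PCR are not independent molecules, so the intervals can be too narrow even for counting error.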

How the data were processed

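Small RNA libraries of 2 replicates were used. The authors deposited, per library, whole-number read counts per miRNA gene, not normalized, on mm10 with GENCODE M21 per the notes beside the tables. The sources used here do not name the aligner or the trimming. Reads on the strand of the gene were used, and the 4 summary lines (unmapped, multimapping, no feature, ambiguous) were kept out of library sizes. From these counts CPM, shares and ratios were computed. TMM factors from genes with at least 10 reads in total, 0.9905 and 1.01, came from edgeR 4.0.16, and RLE size factors from DESeq2 1.42.0 (R 4.3.3). Python 3.11.15, numpy 2.4.6, pandas 2.3.3, scipy 1.17.1 and matplotlib 3.10.9 did the rest. Intervals are exact binomial (Clopper-Pearson), 95%. With 1 group, no test between conditions exists and none was run. The computation of the ratio and its interval was checked on simulated Poisson counts made with the same effective library sizes. Those counts held no spread between libraries, no PCR copies and no multimapping reads. The check therefore covers the arithmetic alone and cannot show whether the intervals hold for these libraries. Runs of 20 bases were searched on both strands of all annotated transcripts other than those over the hairpin itself. Sequences came from RefSeq (GRCm38.p6), with mature arms for 424 of the 472 compared genes (89.83%). Named are the members, their seed mates, sequence and position neighbours, the 2 nearest genes by level, and the listed families and markers. Mirlet7g and the genes at the edge of the ratio ranking were named after their values were seen. Members and lists were chosen with earlier results of these data known.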

Additional observations from a re-analysis of the deposited data

How the results depend on the processing

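Of 69 recomputed values, 58 stayed within the spread or interval of the reported one, 11 moved and 0 changed direction. Part of the 58 was fixed in advance. With 2 libraries, the value of either alone always lies within the SD around their mean. Ratios and shares of the 5 loci from both strands equal the reported ones, since no read lay on the opposite strand there. The count of 58 is therefore no measure of stability. Scaled to 1000000 of all reads in the tables, the mean level was 241.8 for Mir101b, 45.89 for Mir101a, 37.83 for Mir135b, 6.825 for Mir135a-2 and 5.466 for Mir135a-1, all lower since the total is then larger. The values of Mir101b and Mir135b count among the 58 because their SDs are wide. Scaled to all reads, the log2 ratio was 1.72 for Mir101b, 1.23 for Mir101a and 1.63 for Mir135b. With TMM factors from every gene with reads, added after seeing the data, Mir101b had 1.94. With at least 100 reads in total, 24 genes were 2-fold higher in replicate 1 and 18 in replicate 2, and with at least 1 read 124 and 166, as the number of genes compared changes. Scaled to all reads, Mir135a-2 fell below 2-fold, at a log2 ratio of 0.87. Without replicate 1 or without replicate 2, Mir101b held 80.41% to 85.21% of miR-101 and Mir135b 62.09% to 81.13% of miR-135, and the level of Mir101b ranged from 309.9 to 1253 CPM. The gap in median log2 ratio between the GC-poorest and GC-richest groups was 0.63, and 0.53 to 0.63 under its alternatives. No paired analysis was possible because there is 1 group. At 36 to 79 reads per library, the depth limits what can be said of Mir135a-1 and Mir135a-2, and 2 libraries give no measure of how stable any of these differences is.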
